A study of Mus musculus with 13 samples.

Results

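Interferon-stimulated genes are the genes that cells switch on when they sense interferon or foreign nucleic acid. A list of 39 of them was followed through 9 RNA-seq libraries of mouse cells on the way from fibroblast to neural stem cell. The list was drawn up by gene symbol with earlier results of these data known. All 39 symbols were found among the 30332 genes of the count table. It holds 4 transcription factors, 4 nucleic acid sensors, 3 IFIT and 5 OAS genes, 3 genes of the ISG15 system, 12 other antiviral effectors, 3 PARP genes with Dtx3l, and 4 GTPase genes.

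The study followed the conversion of fibroblasts into neural stem cells by a chemical mixture, beside a route through growth factors. All its cells came from Nestin::GFP transgenic mice, in which GFP reports the activity of a neural stem cell gene, and were at passage 3. Fibroblasts of E13.5 embryos were sequenced untreated (D0) and after 1 or 2 days (D1, D2) of VCR, a mixture of the histone deacetylase inhibitor valproic acid, the GSK3 inhibitor CHIR99021 and the TGF-beta receptor inhibitor RepSox. After 4 and 8 days of VCR they were sorted by flow cytometry into GFP-negative and GFP-positive fractions. NSC was a library of primary neural stem cells sorted for GFP. GF was a library of sorted GFP-positive cells from fibroblasts that had received IL6 (50 ng/ml) for 2 days, FGF5 (50 ng/ml) and LIF (100 ng/ml) for another 4 days, and then EGF and bFGF (20 ng/ml each) for a time that the labels do not give, with a change of medium at each step. The labels do not say whether a library was pooled from several embryos or cultures, and they name no untreated fibroblasts cultured alongside, so time in culture and treatment cannot be told apart. Where a sentence below gives a pair of values for a sorted fraction, the first is D4 and the second D8.

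Type I interferons bind the receptor pair IFNAR1 and IFNAR2, whose kinases JAK1 and TYK2 phosphorylate STAT2. With IRF9 it takes part in a complex that binds the interferon-stimulated response element, or ISRE, in the promoters of target genes. Interferon gamma acts through its own receptor, and its signal reaches gamma-activated sequences, or GAS. Fibroblasts are a classic source of interferon beta, and in them weak constant signalling is known to keep these genes at a low resting level.

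Promoter sequences show what the members share at the level of DNA. Of the 39 members, 30 had an entry among the RefSeq promoter windows of build GRCm38.p6, which run from 250 bases before to 50 bases after a transcription start. The core of the ISRE, a pair of TTTC blocks with any 2 bases between them, was searched on both strands, and 16 of the 30 genes (53.3%) held it in at least 1 window, against 3.99% of the 27025 genes of the whole set. The GAS core, TTCNNNGAA, which reads the same on both strands, was found in 8 of the 30 (26.7%) against 9.55% of all genes. The cores shared bases in the windows of Ifitm3 and Bst2. The windows below belong to genes that the results turn on: Isg15, Ifit1 and Ifit3, which were called lower than D0 at D1 and higher in GF, Irgm1, which was as high at D0 as in GF, and Irf7, which had the largest difference of the list. Capitals mark the ISRE core on either strand.
Isg15 (chr4:156200769-156201068, minus strand): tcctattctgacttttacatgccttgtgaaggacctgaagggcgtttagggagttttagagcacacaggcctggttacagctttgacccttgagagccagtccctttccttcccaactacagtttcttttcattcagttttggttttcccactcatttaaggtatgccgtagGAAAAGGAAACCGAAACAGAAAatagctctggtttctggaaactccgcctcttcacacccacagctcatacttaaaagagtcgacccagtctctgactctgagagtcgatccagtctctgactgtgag
Ifit1 (chr19:34640639-34640938, plus strand): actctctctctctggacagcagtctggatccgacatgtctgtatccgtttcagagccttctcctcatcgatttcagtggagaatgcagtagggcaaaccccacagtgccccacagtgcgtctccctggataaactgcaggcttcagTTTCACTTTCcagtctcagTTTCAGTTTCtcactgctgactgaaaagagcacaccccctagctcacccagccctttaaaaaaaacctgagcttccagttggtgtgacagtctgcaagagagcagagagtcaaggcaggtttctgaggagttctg
Ifit3 (chr19:34583279-34583578, plus strand): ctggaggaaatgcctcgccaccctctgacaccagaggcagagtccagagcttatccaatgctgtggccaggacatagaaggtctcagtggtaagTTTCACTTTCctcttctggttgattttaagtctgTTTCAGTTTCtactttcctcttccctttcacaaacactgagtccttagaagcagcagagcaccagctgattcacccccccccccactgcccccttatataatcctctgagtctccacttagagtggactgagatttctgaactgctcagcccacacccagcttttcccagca
Irgm1 (chr11:48871371-48871670, minus strand): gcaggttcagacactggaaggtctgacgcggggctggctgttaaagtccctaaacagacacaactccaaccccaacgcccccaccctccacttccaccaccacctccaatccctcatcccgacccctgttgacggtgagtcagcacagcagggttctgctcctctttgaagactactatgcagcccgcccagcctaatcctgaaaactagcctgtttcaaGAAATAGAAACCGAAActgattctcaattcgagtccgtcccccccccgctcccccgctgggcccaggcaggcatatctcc
Irf7 (chr7:141266375-141266674, minus strand): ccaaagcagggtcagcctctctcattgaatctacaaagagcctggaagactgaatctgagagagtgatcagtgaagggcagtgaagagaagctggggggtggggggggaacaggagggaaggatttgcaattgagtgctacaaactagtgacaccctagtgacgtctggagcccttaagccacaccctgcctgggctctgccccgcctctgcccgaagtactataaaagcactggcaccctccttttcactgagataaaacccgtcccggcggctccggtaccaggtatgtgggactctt
In the Isg15 window 3 matches each overlapped the next, the first starting 78 bases before the transcription start. The Irgm1 window also held overlapping matches, and those of Ifit1 and Ifit3 stood apart. The ISRE core was not in this window of Irf7. A match describes the letters only, and binding was not measured here.

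Every group was 1 library, so no spread between replicates exists, no p-value is given, and each comparison is between libraries. Estimated counts summed to 20104940 in the shallowest library, NSC, and to 36751356 in the deepest, D0. Levels are CPM, the gene's estimated count scaled to a common library total, which is not corrected for gene length, so levels are compared between libraries and not between genes. Differences are of log2(CPM + 1). A call of higher or lower required that the difference reach 1, which is 2-fold on that scale, and that either library reach 5 CPM. The shares of all genes beside such calls are of genes that reach 5 CPM in either library, while members are counted out of the full list. Fold ratios are of CPM, and their 95% intervals cover counting error only. In such bulk samples fewer cells of a type and less RNA per cell cannot be told apart.

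Marker genes were read beside the labels. The D0 library had Col1a1, a collagen gene of fibroblasts, at 5658 CPM. GF had fibroblast genes at a high level. Of the 10 on that list, 7 were called higher than at D0, beside 32.1% of all genes. Col1a1, at 3554 CPM, was under its D0 level, and Twist1, a mesenchymal transcription factor gene, was at 334 CPM against 50.1 at D0. Of neural stem cell genes, Sox2 stood at 13.4 CPM in GF against 267 in NSC, and Sox1 at 1.17 against 52.6. The NSC library also held markers of macrophages and microglia. The 12 markers on that list summed to 498 CPM there, among them Csf1r at 245 and Cx3cr1 at 78.2 CPM, against 25.1 to 284 CPM in the other 8 libraries. The part of such cells in the NSC values below was not tested.

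The members were set apart by the GF library. It had the highest level of 37 of the 39 genes, whereas it was the highest library for 16.7% of the 13731 genes with 5 CPM or more anywhere. The exceptions were Ifit2, highest in the GFP-positive library of D4, and Mx1, highest in NSC. All 39 members had 5 CPM or more in GF, against 18 to 26 of them in each of the other libraries. The median member stood at 6.49 on the log2(CPM + 1) scale in GF, at 3.53 at D0 and between 2.44 and 3.68 elsewhere. Among the 8 libraries other than GF, D0 was the highest for 12 of the 39, against 6.18% of all genes. NSC was the highest for 14, against 45.4% of all genes.

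**Figure D1:**
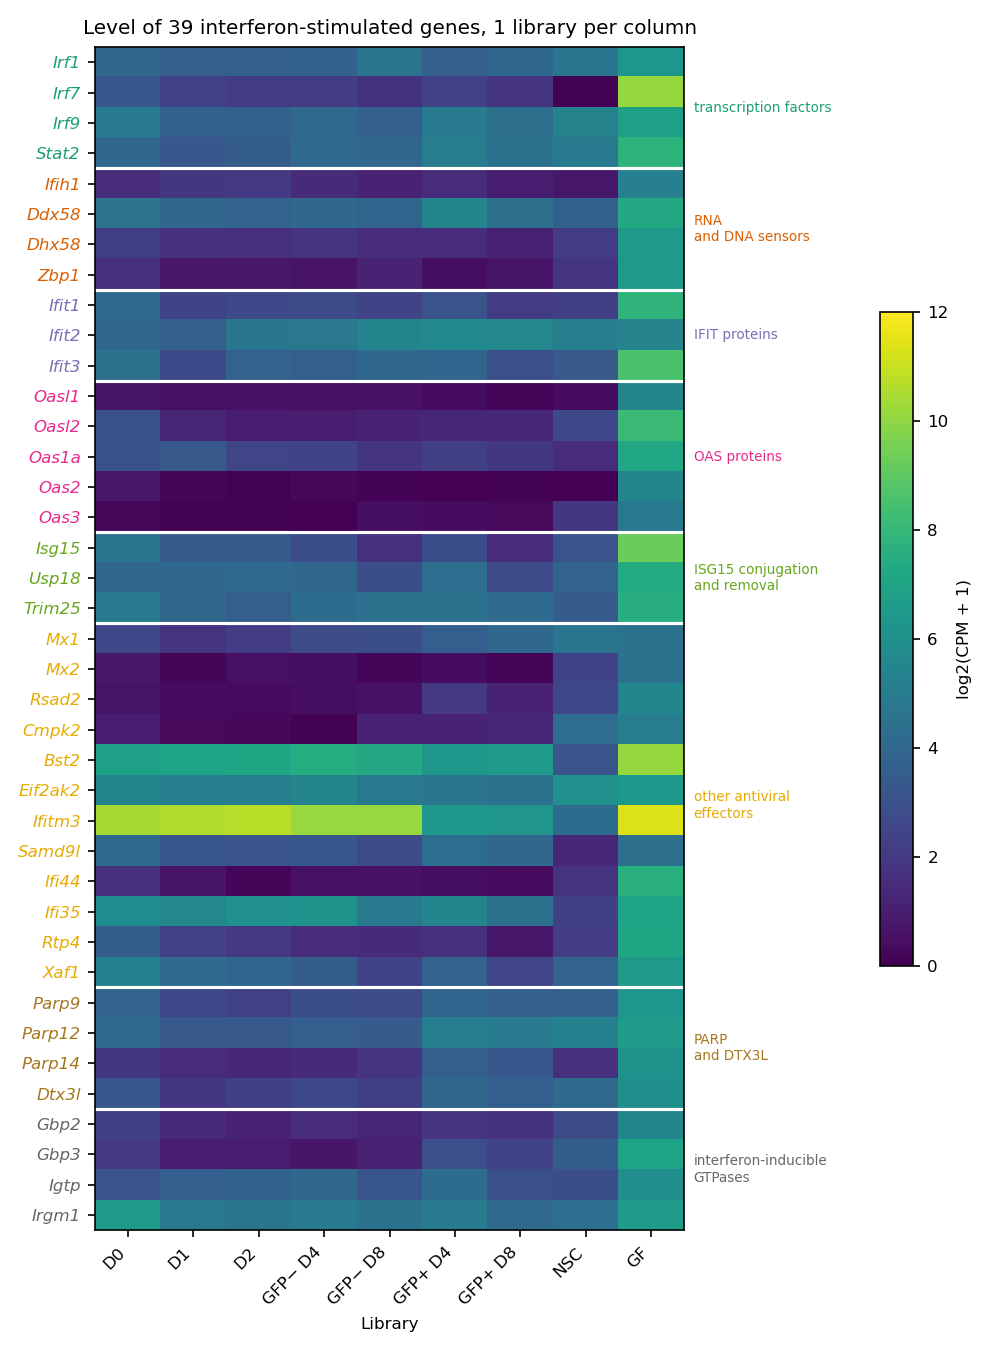
Level of each of the 39 members, as log2(CPM + 1) in colour, in the 9 libraries (columns, 1 library each), with gene names coloured and grouped by role. The GF column is the brightest for all members but Ifit2 and Mx1, and the median member stands at 6.49 there against 3.53 at D0.

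The transcription factors carry the interferon signal to the genome. Irf7 encodes the factor that amplifies the production of type I interferon. Its levels were 8.79 CPM at D0, 3.98 and 3.38 at D1 and D2, 3.40 and 2.38 in the GFP-negative libraries, 3.97 and 2.56 in the GFP-positive ones, 0.0995 in NSC and 1101 in GF. GF stood far apart from every other library, with a ratio to D0 of 125-fold (95% interval 112 to 140.2), and NSC lay lowest at 2 counts. By the size of its difference from D0 (6.81), Irf7 ranked 14 among the 11398 genes with 5 CPM or more in either library. Stat2, whose product joins IRF9 in that complex, was at 217 CPM in GF and 27.8 in NSC, against 15.6 at D0, 8.47 at D1, 10.5 at D2, 15.9 and 14.4 in the GFP-negative and 33.2 and 21.03 in the GFP-positive libraries. Irf9, the DNA-binding part of the same complex, was at 29.3 CPM at D0, 12.3 and 12.1 at D1 and D2, 15.9 and 11.8 in the GFP-negative libraries, 29.5 and 20.6 in the GFP-positive ones, 40.02 in NSC and 114 in GF. Both were lowest on the first days of VCR or in the GFP-negative library of D8, and both were higher in the GFP-positive than in the GFP-negative library of each day, at D4 by 2.09-fold for Stat2 and 1.86-fold for Irf9. Irf1, which answers mainly to interferon gamma, was at 14.5 CPM before treatment, 11.2 and 11.96 on the first days of VCR, 12.1 and 23.3 in the GFP-negative fraction, 11.8 and 15.7 in the GFP-positive fraction, 23.9 in NSC and 79.2 in GF. Its 8 libraries outside GF spanned only 1.03 on the log2(CPM + 1) scale, and GF lay 5.47-fold (95% interval 4.97 to 6.04) above D0.

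Among the sensors, Ddx58 encodes RIG-I and Ifih1 encodes MDA5, receptors for viral RNA. Ddx58 was at 22.4 CPM at D0, 15.7 and 12.9 at D1 and D2, 15.6 and 13.46 in the GFP-negative libraries, 43.3 and 20.7 in the GFP-positive ones, 12.3 in NSC and 149 in GF. Ifih1 was at 36.7 CPM in GF and 0.703 in NSC, against 1.88 at D0, 2.91 at D1, 2.92 at D2, 1.76 and 1.23 in the GFP-negative and 1.87 and 1.04 in the GFP-positive libraries. Outside GF, Ifih1 never passed 3 CPM, while Ddx58 was measurable throughout and highest in the GFP-positive library of D4. Dhx58 encodes LGP2, a regulator of both receptors. Its levels were 3.70 CPM at D0, 2.26 and 2.04 at D1 and D2, 2.60 and 1.87 in the GFP-negative libraries, 1.90 and 1.18 in the GFP-positive ones, 3.20 in NSC and 85.3 in GF. Zbp1 encodes a sensor of Z-form nucleic acid that can start cell death. It was at 85.9 CPM in GF and 2.59 in NSC, against 2.20 at D0, 0.743 at D1, 0.760 at D2, 0.549 and 1.19 in the GFP-negative and 0.345 and 0.590 in the GFP-positive libraries. Zbp1 stayed under 3 CPM in 8 libraries, and its ratio of GF to D0 was 38.99-fold (95% interval 31.2 to 49.3).

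The IFIT genes encode proteins that bind foreign RNA and block its translation, and they lie side by side on chromosome 19. Ifit1 was at 16.1 CPM at D0, 4.37 and 5.18 at D1 and D2, 5.80 and 4.59 in the GFP-negative libraries, 7.34 and 3.33 in the GFP-positive ones, 3.89 in NSC and 225 in GF. Ifit3 was at 22.2 CPM before treatment, 5.46 and 12.5 on the first days of VCR, 10.9 and 15.03 in the GFP-negative fraction, 14.2 and 6.51 in the GFP-positive fraction, 9.19 in NSC and 376 in GF. These neighbours had in common that D0 was highest among the 8 libraries outside GF, and that GF lay above D0, by 14.01-fold (95% interval 12.9 to 15.3) for Ifit1 and by 16.9-fold (95% interval 15.7 to 18.2) for Ifit3. Ifit2, the third gene of the cluster, had another order, at 15.3 CPM at D0, 11.7 and 25.03 at D1 and D2, 26.6 and 41.4 in the GFP-negative libraries, 52.5 and 46.5 in the GFP-positive ones, 33.9 in NSC and 40.3 in GF. It was lowest at D1 and D0 and highest in the GFP-positive fraction, and the GF library lay within the range of the sorted libraries. Ifit3b, a close copy of Ifit3, was at 4.74 CPM at D0 and 97.4 in GF, and the split of reads between such copies is uncertain. Ifit1bl1, another copy in this family, went the other way, at 1.36 CPM at D0, 0.271 in GF and 14.3 in NSC.

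OAS enzymes make oligoadenylates that activate the RNA-degrading enzyme RNase L. Oas1a was at 7.09 CPM at D0, 9.07 and 4.65 at D1 and D2, 4.29 and 2.55 in the GFP-negative libraries, 3.87 and 2.91 in the GFP-positive ones, 1.89 in NSC and 139 in GF. Oas2 was at 0.789 CPM at D0, 0.149 and 0.0608 at D1 and D2, 0.183 and 0.0851 in the GFP-negative libraries, 0 and 0.0346 in the GFP-positive ones, 0 in NSC and 42.6 in GF. Oas3 was at 28.2 CPM in GF and 2.85 in NSC, against 0.213 at D0, 0.0596 at D1, 0.0648 at D2, 0 and 0.366 in the GFP-negative and 0.330 and 0.254 in the GFP-positive libraries. Oas2 and Oas3 were under 1 CPM outside GF, apart from Oas3 in NSC. Oasl2, an OAS-like gene, was at 7.10 CPM at D0, 1.46 and 0.973 at D1 and D2, 0.878 and 1.19 in the GFP-negative libraries, 1.52 and 1.53 in the GFP-positive ones, 5.17 in NSC and 285 in GF. Oasl1, which in mice restrains the translation of Irf7, was at 44.99 CPM in GF and 0.298 in NSC, against 0.680 at D0, 0.475 at D1, 0.487 at D2, 0.475 and 0.511 in the GFP-negative and 0.316 and 0.139 in the GFP-positive libraries. All 5 were higher in GF than at D0, Oasl2 by 40.1-fold (95% interval 35.4 to 45.5) and Oas1a by 19.6-fold (95% interval 17.3 to 22.3). Oas1g, a close copy of Oas1a, was likewise at 31.3 CPM in GF against 0.500 at D0.

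ISG15 is a small ubiquitin-like protein that is attached to other proteins during the interferon response. Isg15 was at 23.6 CPM at D0, 10.3 and 9.89 at D1 and D2, 6.47 and 2.13 in the GFP-negative libraries, 6.38 and 1.84 in the GFP-positive ones, 7.51 in NSC and 633 in GF. It was lower at D8 than at D4 in both fractions, and GF lay 26.8-fold (95% interval 24.99 to 28.7) above D0. Usp18 encodes the protease that removes ISG15 and also damps the interferon receptor. It was at 14.6 CPM before treatment, 15.3 and 16.00 on the first days of VCR, 14.4 and 6.34 in the GFP-negative fraction, 19.3 and 5.61 in the GFP-positive fraction, 13.03 in NSC and 166 in GF. Its level stayed between 14.4 and 16.00 CPM from D0 to D2 and in the GFP-negative library of D4. Outside GF it was highest in the GFP-positive library of D4, and it was lower at D8 in both fractions. Trim25, a ubiquitin ligase gene that acts on RIG-I, was at 30.4 CPM at D0, 15.7 and 11.4 at D1 and D2, 18.2 and 21.01 in the GFP-negative libraries, 21.7 and 17.4 in the GFP-positive ones, 10.02 in NSC and 189 in GF.

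Among the other effectors, Ifitm3 encodes a membrane protein that keeps viruses from entering the cytoplasm. It was at 1325 CPM at D0, 1506 and 1669.9 at D1 and D2, 1136 and 1126 in the GFP-negative libraries, 83.9 and 74.3 in the GFP-positive ones, 18.1 in NSC and 2649 in GF. Both GFP-positive libraries and NSC were far below the fibroblasts and the GFP-negative fraction. Bst2, the gene of tetherin, which holds budding virus at the cell surface, was at 112 CPM at D0, 125 and 135 at D1 and D2, 174 and 148 in the GFP-negative libraries, 81.02 and 88.3 in the GFP-positive ones, 7.86 in NSC and 1095 in GF. It was high in all fibroblast-derived libraries and low in NSC. Ifi35 was at 56.1 CPM before treatment, 46.3 and 65.7 on the first days of VCR, 69.1 and 30.04 in the GFP-negative fraction, 41.5 and 21.1 in the GFP-positive fraction, 3.83 in NSC and 122 in GF. It too was lowest in NSC.

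Rtp4, whose product damps interferon responses in mice, was at 10.5 CPM at D0, 4.04 and 3.01 at D1 and D2, 1.87 and 1.74 in the GFP-negative libraries, 2.21 and 0.693 in the GFP-positive ones, 3.53 in NSC and 131 in GF. Xaf1, which encodes a partner of the apoptosis inhibitor XIAP, was at 37.1 CPM before treatment, 17.4 and 14.2 on the first days of VCR, 10.6 and 4.41 in the GFP-negative fraction, 12.99 and 4.74 in the GFP-positive fraction, 13 in NSC and 88.8 in GF. Ifi44 was at 194 CPM in GF and 2.56 in NSC, against 2.07 at D0, 0.624 at D1, 0.152 at D2, 0.512 and 0.516 in the GFP-negative and 0.345 and 0.281 in the GFP-positive libraries. Rtp4 and Xaf1 were lower at D8 than at D2 in both fractions, and Ifi44 had 1 CPM or less in every VCR library against 194 CPM in GF.

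Rsad2 encodes viperin, an enzyme that makes a chain-terminating nucleotide, and Cmpk2 a nucleotide kinase encoded next to it on chromosome 12. Rsad2 was at 0.627 CPM at D0, 0.297 and 0.274 at D1 and D2, 0.376 and 0.526 in the GFP-negative libraries, 3.04 and 1.18 in the GFP-positive ones, 5.03 in NSC and 44.8 in GF. Cmpk2 was at 0.980 CPM at D0, 0.238 and 0.213 at D1 and D2, 0.0366 and 1.15 in the GFP-negative libraries, 1.24 and 1.39 in the GFP-positive ones, 18.7 in NSC and 32.7 in GF. Both neighbours were highest in GF and next highest in NSC, and they differed in the order of the other libraries. Mx1 and Mx2 are dynamin-like GTPase genes, which the GRCm38.p6 annotation of the C57BL/6J strain lists as transcribed pseudogenes. Mx1 was at 5.12 CPM at D0, 2.59 and 3.50 at D1 and D2, 5.63 and 6.38 in the GFP-negative libraries, 11.2 and 15.7 in the GFP-positive ones, 24.6 in NSC and 21.3 in GF. Mx2 was at 0.762 CPM at D0, 0.149 and 0.456 at D1 and D2, 0.402 and 0.170 in the GFP-negative libraries, 0.316 and 0.173 in the GFP-positive ones, 4.33 in NSC and 21.6 in GF. Mx1 was high in the GFP-positive fraction, NSC and GF alike, while Mx2 was high in GF, with NSC next.

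Eif2ak2, the gene of the RNA-activated kinase PKR, spanned from 20.9 CPM in the GFP-positive library of D8 to 82.7 in GF and was the member with the narrowest range. Samd9l, which encodes a brake on growth and on viruses, was at 17.1 CPM at D0, 8.17 and 7.93 at D1 and D2, 8.52 and 5.999 in the GFP-negative libraries, 18.9 and 14.9 in the GFP-positive ones, 1.496 in NSC and 20.8 in GF. Its GF level lay close to those of D0 and the GFP-positive library of D4, and NSC was lowest.

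PARP9 works as a pair with the ubiquitin ligase DTX3L, and PARP12 and PARP14 attach single ADP-ribose units to proteins. Parp9 was at 13.1 CPM at D0, 5.05 and 4.16 at D1 and D2, 6.49 and 5.93 in the GFP-negative libraries, 14.3 and 11.7 in the GFP-positive ones, 11.9 in NSC and 78.4 in GF. Dtx3l was at 8.35 CPM at D0, 2.79 and 3.84 at D1 and D2, 5.06 and 3.74 in the GFP-negative libraries, 15.2 and 10.9 in the GFP-positive ones, 16.9 in NSC and 61.4 in GF. The annotated spans of these genes overlap at their starts, and the counting is not stated to use strand, so their reads may be shared. Parp12 was at 16.2 CPM before treatment, 9.15 and 9.16 on the first days of VCR, 11.2 and 10.04 in the GFP-negative fraction, 34.05 and 29.6 in the GFP-positive fraction, 37.4 in NSC and 93.7 in GF. Parp14 was at 2.81 CPM at D0, 1.84 and 1.61 at D1 and D2, 1.72 and 2.46 in the GFP-negative libraries, 11.9 and 8.55 in the GFP-positive ones, 2.15 in NSC and 69.4 in GF. All 4 genes were lowest at D1 or D2, and all 4 were higher in the GFP-positive than in the GFP-negative fraction on both days.

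The GTPases are typical targets of interferon gamma that act on membranes around parasites and bacteria. Gbp2 was at 3.86 CPM at D0, 1.78 and 1.31 at D1 and D2, 1.83 and 1.40 in the GFP-negative libraries, 2.64 and 2.36 in the GFP-positive ones, 5.67 in NSC and 45.2 in GF. Gbp3 was at 125 CPM in GF and 10.6 in NSC, against 3.05 at D0, 0.862 at D1, 0.943 at D2, 0.658 and 1.15 in the GFP-negative and 6.57 and 4.35 in the GFP-positive libraries. Igtp was at 7.67 CPM before treatment, 10.96 and 12.4 on the first days of VCR, 14.8 and 8.11 in the GFP-negative fraction, 18.1 and 6.58 in the GFP-positive fraction, 6.46 in NSC and 58.04 in GF. In GF these 3 stood well above their level in every other library. Irgm1 differed from them, at 91.7 CPM at D0, 27.96 and 24.04 at D1 and D2, 31.1 and 21.5 in the GFP-negative libraries, 29.2 and 16.4 in the GFP-positive ones, 20.1 in NSC and 94.1 in GF. D0 and GF were level, with a ratio of 1.03-fold (95% interval 0.971 to 1.08), and the other 7 libraries all lay at or under 31.1 CPM.

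The comparison of GF with D0 asks how fibroblasts that went through growth factors and sorting differ from where they began. In that comparison 35 of the 39 members were higher and 0 lower, with 32.1% of all 11398 genes higher and 16.0% lower. The 4 that were not called were Ifitm3, Eif2ak2, Samd9l and Irgm1, with differences of 0.999, 0.98, 0.27 and 0.04. The median difference over all 39 was 3.51, and that over all genes compared was 0.30. Every member had a level above its D0 value. Because the members were chosen with earlier results of these data known, setting them beside all genes is a description only. Of the 39, 14 were among the 200 genes with the largest differences and 23 among the first 500. After Irf7, the largest differences were those of Ifi44 (5.99), Oasl2 (5.14) and Gbp3 (4.96). D0 was not sorted, so sorting cannot be told apart from the growth factors here. The records list GF and NSC apart from the other samples, and whether they were prepared on another occasion is not known here. Such an occasion could not be told apart from the growth factors either.

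**Figure D2:**
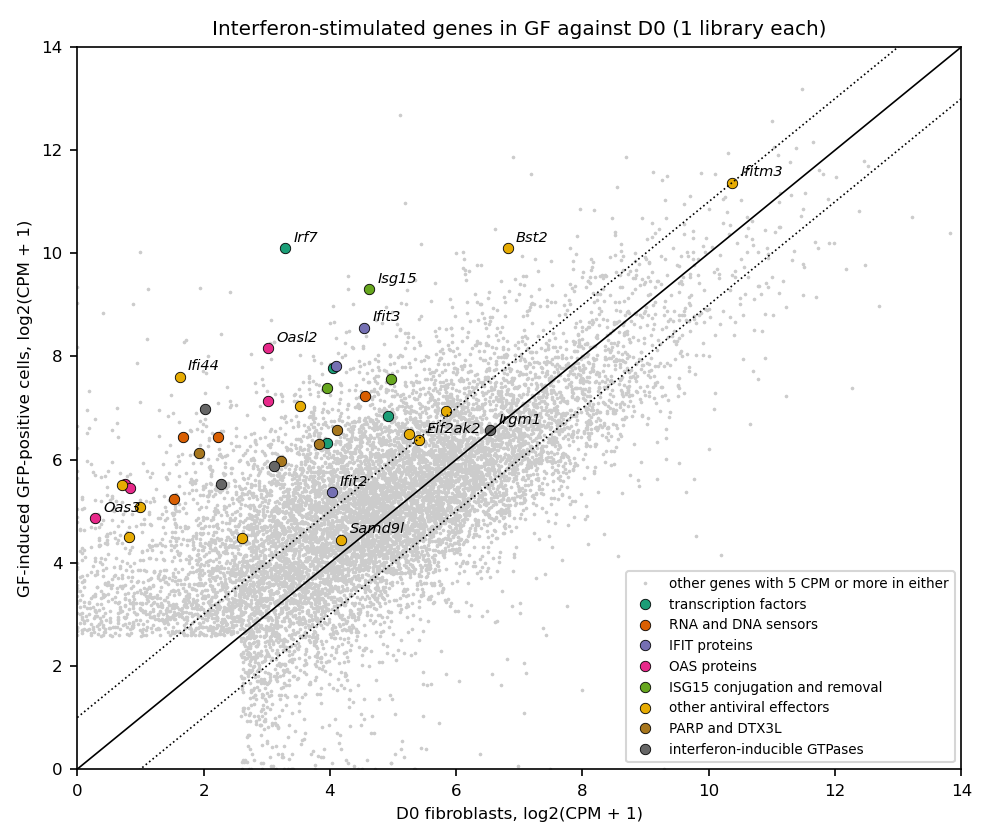
Level in GF (vertical axis) against D0 (horizontal axis), both log2(CPM + 1), with members coloured by role and all other genes with 5 CPM or more in either library in grey. The solid line marks equal levels and the dotted lines a difference of 1, and 35 of the 39 members lie above the upper dotted line.

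GF was compared with the other GFP-positive cells as well, and those libraries were all sorted. Against the GFP-positive library of D8, 36 members were higher and 0 lower, with 21.5% of all genes higher and 28.2% lower. Against NSC, 35 were higher and 0 lower, with 21.2% and 42.4% of all genes. Irf7 stood at 1101 CPM against 2.56 and 0.0995, and Isg15 at 633 against 1.84 and 7.51. The 3 members without a call against the GFP-positive library of D8 were Ifit2, Mx1 and Samd9l.

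Markers of immune cells were low in GF. The 12 macrophage markers summed to 41.7 CPM there against 97.9 at D0, and 27.3 CPM of this came from Cd14, which encodes a receptor for bacterial lipopolysaccharide and stood at 1.63 CPM at D0. None of the 12 was at 0, but Ptprc, the pan-leukocyte gene, was at 0.135 and Csf1r at 1.08 CPM. The 7 lymphocyte and dendritic cell markers summed to 0.271 CPM, with 4 at 0, and the 7 endothelial markers to 9.30 CPM against 13.3 at D0. The endothelial markers went in opposite directions, with Cdh5 at 6.09 CPM in GF against 0.0272 at D0 (1 count), Cldn5 at 0.677 against 0.0272, and Emcn at 0.226 against 9.52. The part of these cells in the members' levels was not tested.

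At D1 and D2 every call among the members against D0 was in the lower direction. At D1, 10 members were lower and 0 higher, with 5.92% of all genes lower and 6.63% higher. The 10 were Irf9, Isg15, Ifit1, Ifit3, Oasl2, Rtp4, Xaf1, Parp9, Dtx3l and Irgm1. Ifit3 was 4.07-fold (95% interval 3.46 to 4.80) lower, Ifit1 3.68-fold (95% interval 3.06 to 4.43) lower, Irgm1 3.28-fold (95% interval 3.05 to 3.53) lower and Oasl2 4.88-fold (95% interval 3.58 to 6.76) lower. At D2, 11 were lower and 0 higher, with 6.04% of all genes lower and 6.74% higher. Irf7, Trim25 and Samd9l joined the list, and Ifit3 and Dtx3l left it. The median difference from D0 was -0.76 at D1 and -0.75 at D2, beside 0.04 and 0.06 over all genes. With a pseudocount of 5 in place of 1, Ifit1, Ifit3 and Irgm1 alone were still lower at D1, and 6 members at D2. From D1 to D2, 2 members were higher, Ifit2 by 2.14-fold and Ifit3 by 2.28-fold, and 0 were lower, with 1.2% of all genes higher and 2.79% lower. Neither was called with a pseudocount of 5. D0 is the reference of all these counts, and anything peculiar to that library enters each of them. The 12 macrophage markers summed to 97.9 CPM at D0 and to 66.9 and 69.1 at D1 and D2. Lyz2 made up most of these sums, at 74.4, 39.5 and 46.5 CPM. The others did not all go 1 way: Tyrobp was at 3.27, 1.81 and 1.52 CPM, but Cd68 at 7.07, 13.1 and 10.9. The part of macrophages in the difference of the members was not tested.

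**Figure D3:**
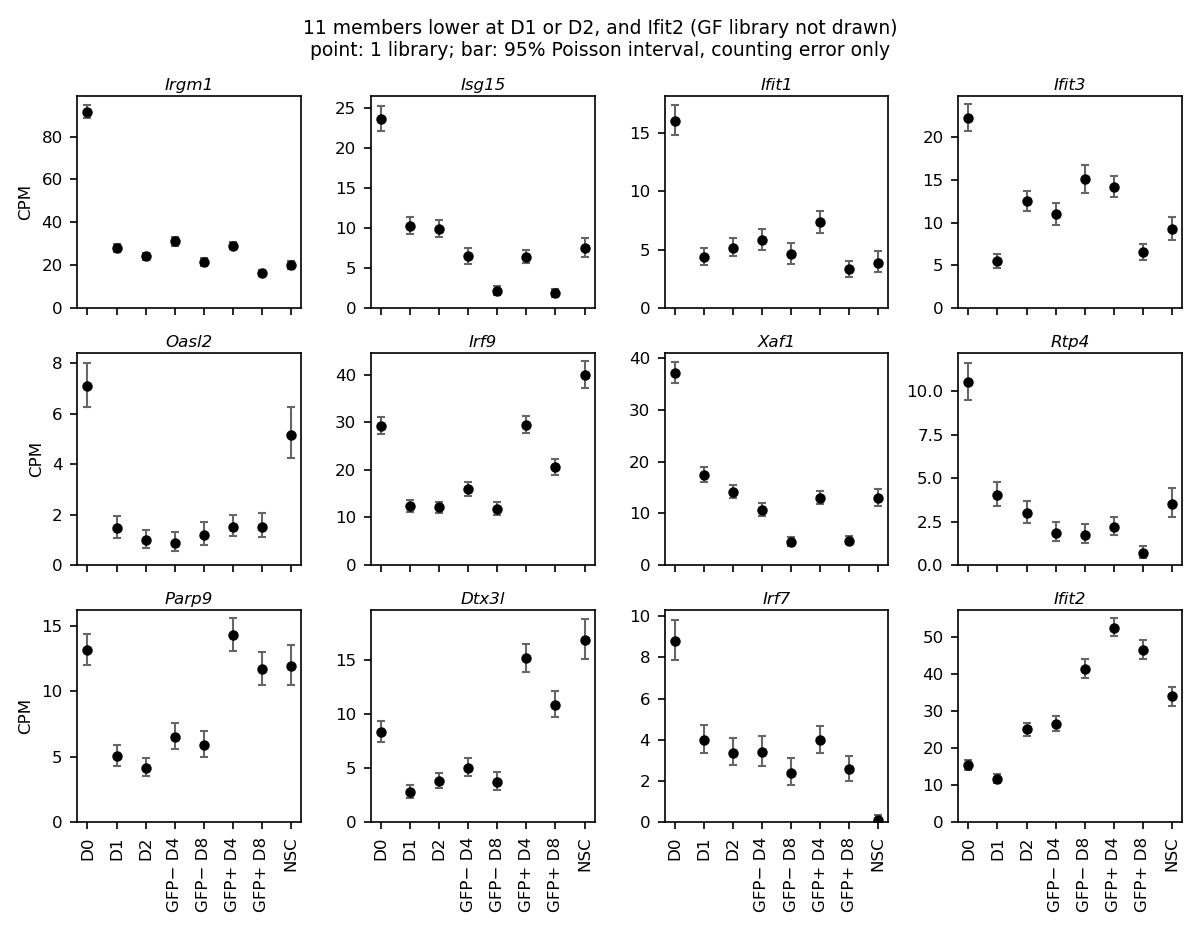
Levels in CPM (linear axes from 0) of 11 members that were lower at D1 or D2 and of Ifit2, in the 8 libraries other than GF, with 1 library per point and 95% Poisson intervals for counting error as bars. Irgm1 starts at 91.7 CPM and stays at or under 31.1 in the 7 other libraries drawn, Parp9 and Dtx3l are higher again in the GFP-positive fraction, and Ifit2 is at its lowest at D0 and D1.

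In the GFP-negative fraction the lower members were largely those of the first days. At D4, 7 members were lower and 0 higher, with 5.28% of all genes lower and 11.0% higher. At D8, 12 were lower and 1, Ifit2, was higher, with 6.12% of all genes lower and 16.4% higher. The Isg15 level at D8 was 11.1-fold (95% interval 8.36 to 15.1) under that of D0, and Xaf1 was 8.41-fold (95% interval 6.87 to 10.3) lower. Over all genes the median difference from D0 was 0.30 at D4 and 0.31 at D8, while over the members it was -0.60 and -0.69. With scaling by median ratios 12 members were lower at D4, and with TMM scaling 11. With a pseudocount of 5, 7 were lower at D8.

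In the GFP-positive fraction the list was mixed. Against D0, 5 members were higher at D4 (Stat2, Ifit2, Parp12, Parp14 and Igtp) and 7 lower (Isg15, Ifit1, Oasl2, Rtp4, Xaf1, Ifitm3 and Irgm1), with 38.5% of all genes higher and 11.3% lower. At D8, 3 were higher (Ifit2, Mx1 and Parp14) and 12 lower, with 35.7% of all genes higher and 13.4% lower. Ifitm3 was 15.8-fold (95% interval 15.2 to 16.4) and 17.8-fold (95% interval 17.1 to 18.6) lower on the respective days. Over all genes the median difference was 0.66 at D4 and 0.57 at D8, and over the members -0.42 and -0.56. Scaling by median ratios, which takes most of that shift out, left Ifit2 and Parp14 as the members higher at D4, and 14 members were then lower. At D8 the call of Parp14 was lost with that scaling (0.93), and with TMM scaling those of Parp14 (0.90) and Mx1 (0.98). The macrophage markers summed to 284 and 182 CPM in these libraries, with Lyz2 at 185 and 83.5 CPM, and their part in the members' levels was not tested.

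The direct comparison of the fractions sets cells against each other that had the same days of VCR and the same sort. At D4, 8 members were higher in the GFP-positive library and 2 lower, with 25.4% of all genes higher and 11.5% lower. With TMM scaling 5 were higher and 4 lower at D4, and the median difference of the members went from 0.27 to -0.0027. At D8, 5 were higher and 2 lower, with 20.3% and 12.2% of all genes. The higher members were 20.5% and 12.8% of all 39, including those under 5 CPM in both libraries. The shares of all genes leave such genes out, so the 2 kinds of share cannot be ranked against each other. The PARP group stood on one side on both days. The ratio for Parp14 was 6.92-fold (95% interval 5.11 to 9.57) at D4, and 3.48-fold (95% interval 2.60 to 4.70) at D8. For Parp12 the ratios were 3.04-fold (95% interval 2.68 to 3.46) and 2.95-fold (95% interval 2.55 to 3.43), and for Dtx3l 3.001-fold (95% interval 2.49 to 3.65) and 2.91-fold (95% interval 2.29 to 3.73). Parp9 was called at D4 (1.03) but not at D8 (0.87), and its D4 call was lost with median ratio (0.77) and TMM (0.76) scaling, as were those of Stat2 (0.75 and 0.74) and Samd9l (0.80 and 0.79). At D8 median ratio scaling ended the calls of Mx1 and Samd9l (0.99 each), and with a pseudocount of 5 Parp12 was the one higher member. Ifitm3 went the other way, at 83.9 against 1136 CPM, 13.53-fold (95% interval 13.02 to 14.1) lower, and at 74.3 against 1126 CPM, 15.1-fold (95% interval 14.5 to 15.8) lower. The other lower calls were Bst2 at D4 (-1.09) and Ifit3 at D8 (-1.09). The fractions also differed in cell type markers. The 8 neural crest and Schwann cell markers summed to 2390.3 and 2721 CPM in the GFP-positive libraries against 42.8 and 55.1 in the GFP-negative ones, the 10 fibroblast markers to 1675 and 1453 against 6416 and 8249, and the 12 macrophage markers to 284 and 182 against 31.8 and 25.1. Of the fibroblast markers, Pdgfrb went against the sum, at 243 and 323 CPM in the GFP-positive against 57.6 and 129 in the GFP-negative libraries. The part of these cell types in the differences was not tested.

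**Figure D4:**
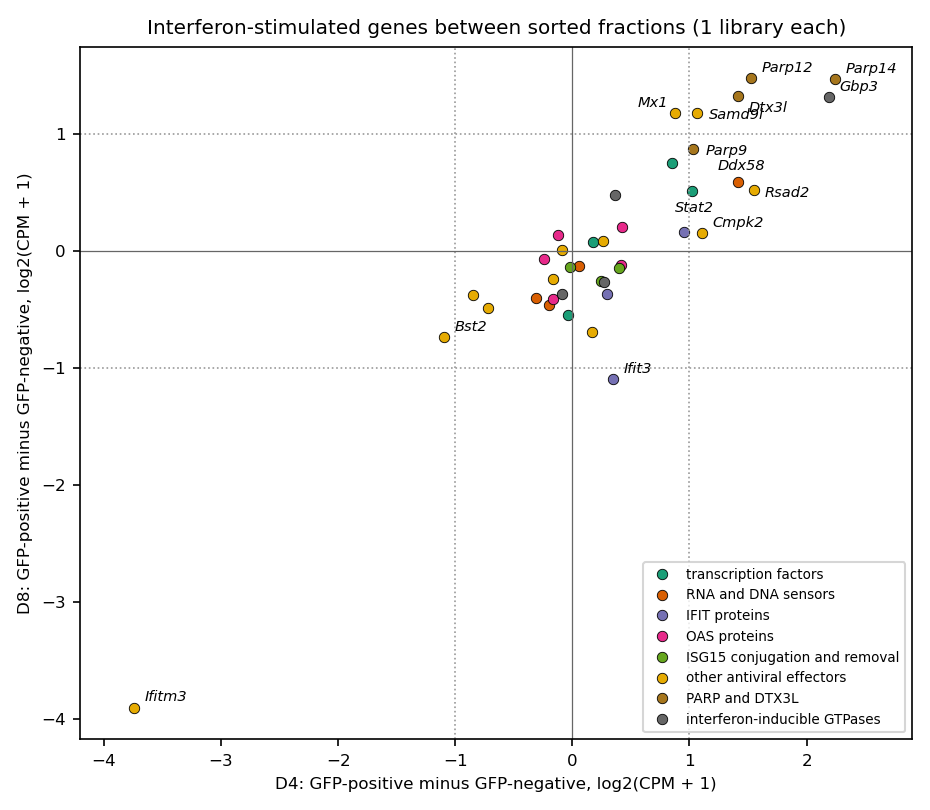
Difference between the GFP-positive and the GFP-negative library at D8 (vertical axis) against that at D4 (horizontal axis), in log2(CPM + 1), for the 39 members coloured by role, with dotted lines at differences of 1 and -1 and names for members beyond them on either axis. Parp14, Parp12, Dtx3l, Gbp3 and Samd9l lie at the upper right and Ifitm3 alone at the lower left, while Rsad2 and Cmpk2 at D4 and Gbp3 at D8 had under 5 CPM in both libraries and were not called.

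Between D4 and D8 the members that were called were lower at the later day. Under the 5 CPM that a call needs, Cmpk2 went the other way in the GFP-negative fraction, from 1 count to 27 counts. In the GFP-positive fraction 6 were lower and 0 higher, with 1.49% of all genes lower and 1.28% higher, and in the GFP-negative fraction 4 were lower and 0 higher, with 1.47% and 3.68% of all genes. Isg15, Usp18 and Xaf1 were lower in both. Isg15 was 3.47-fold (95% interval 2.56 to 4.78) lower in the GFP-positive and 3.04-fold (95% interval 2.21 to 4.25) lower in the GFP-negative fraction. Usp18 was 3.44-fold (95% interval 2.89 to 4.11) and 2.27-fold (95% interval 1.87 to 2.76) lower, and Xaf1 2.74-fold (95% interval 2.26 to 3.34) and 2.41-fold (95% interval 1.92 to 3.04) lower. Ifit3, Ddx58 and Igtp were lower in the GFP-positive fraction, where the calls of Ifit3 (-0.90) and Ddx58 (-0.92) were lost with median ratio scaling, and Ifi35 was lower in the GFP-negative one. With a pseudocount of 5, Usp18 in the GFP-positive and Ifi35 in the GFP-negative fraction were the calls that were left. Whether the fractions differed in this change was not tested.

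Primary neural stem cells had the lower level for 13 members and the higher for 6 when set against D0, with 17.4% of all genes lower and 49.9% higher. Lower members included Ifitm3, at 18.1 against 1325 CPM, Bst2, at 7.86 against 112 CPM, Irf7, Ifi35, Isg15 and Samd9l. Cmpk2 was 19.1-fold (95% interval 13.54 to 27.7) higher, Mx1 4.81-fold (95% interval 4.06 to 5.72) and Gbp3 3.47-fold (95% interval 2.75 to 4.41), and Ifit2, Rsad2 and Parp12 were called higher as well. Over all genes the median difference from D0 was 1.00 in this library, and TMM scaling moved it by -0.999. With TMM scaling Cmpk2 and Mx1 remained higher and all 13 lower members remained lower. This library also held 49.5 CPM of the 7 lymphocyte and dendritic cell markers, 40.98 of it from Siglech, a gene of plasmacytoid dendritic cells that microglia express too. Against NSC, the GFP-positive library of D8 had 5 members higher (Bst2, Ifi35, Parp14, Ifitm3 and Samd9l) and 8 lower, with 17.8% and 33.9% of all genes. The lower count was 2 with a pseudocount of 5 or with TMM scaling, and 13 without a floor.

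The rest of the pathway was read from lists of other genes. The interferon genes themselves were almost silent. Ifnb1, the gene of interferon beta, had 19 counts in GF (0.857 CPM, 95% interval 0.516 to 1.34), 3 counts in NSC and 0 in the other 7 libraries, where 3 counts would have been 0.0816 to 0.128 CPM. NSC held 26 counts of Ifna2 and 20 and 23 of the interferon lambda genes Ifnl2 and Ifnl3, which are near-identical copies. Ifng had 2 counts in the GFP-positive library of D4, 1 in NSC and 0 elsewhere. None of the 13 ligand genes reached 5 CPM in any library.

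Receptors and JAK kinases made up the next list. Of the 9 genes on that list, 3 were higher in GF than at D0 (Ifnar1, Jak2 and Tyk2) and 0 lower. That is 33.3% of the full list, beside 32.1% of all genes with 5 CPM or more in either library. Ifnar1 was at 37.6 CPM before treatment, 38.5 and 34.1 on the first days of VCR, 47.8 and 53.9 in the GFP-negative fraction, 168 and 184 in the GFP-positive fraction, 115 in NSC and 109 in GF, so that it was highest in the GFP-positive fraction and not in GF. In the GFP-positive library of D4, Ifnar1, Il10rb and Tyk2 were higher and Ifngr2 lower than in the GFP-negative one.

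Of 15 sensing and adaptor genes, 6 were higher in GF than at D0 and 0 lower, with 32.1% of all genes higher and 16.0% lower. Among the 6 were Ikbke, a kinase gene that is itself interferon-inducible, at 38.9 against 10.5 CPM, and Tlr3, an RNA receptor gene, at 10.97 against 2.86 CPM. Tmem173, which encodes STING, the adaptor of DNA sensing, was at 45.1 CPM at D0 and 56.01 in GF, but at 9.85 and 5.27 in the GFP-positive against 32.5 and 32.7 in the GFP-negative libraries. Irf8, a factor gene of myeloid cells, stood at 22.6 CPM in NSC and under 1 CPM elsewhere, beside the macrophage markers of that library. Of 10 negative regulators, 6 were higher in GF and 0 lower, beside the same shares of all genes. Socs1, a feedback inhibitor of JAK kinases, was at 6.88 CPM at D0, 7.28 and 12.2 at D1 and D2, 11.4 and 22.5 in the GFP-negative libraries, 10.1 and 20.6 in the GFP-positive ones, 8.06 in NSC and 36.1 in GF. It was higher at D8 than at D4 in both fractions, the opposite order to Isg15 and Usp18. Adar, the RNA-editing enzyme gene that keeps self RNA from being sensed, was at 139 CPM in GF, 86.6 in NSC and 50.1 in the GFP-positive library of D4 against 10.1 at D0.

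A further 36 interferon-stimulated genes outside the members showed the same side in GF. There 31 of them were higher than at D0 and 1, Ifi27, was lower, with 32.1% of all genes higher and 16.0% lower, and the list median was 2.61. This list was chosen with earlier results of these data known, so it is not independent of the result for the members. The chemokine gene Ccl5 had 459.5 CPM in GF against 0.327 at D0, and Cxcl10 156 against 3.07. Antigen processing genes were among them, with Psmb9 at 99.7 against 3.10 CPM and Tap1 at 259 against 17.96 CPM. Iigp1, a GTPase gene of the Irgm1 family, stood at 135 CPM against 3.67. At D1, 3 of the 36 were lower than at D0 and 1 higher, with 5.92% of all genes lower and 6.63% higher. Between the fractions, 10 of the 36 were lower and 1 higher in the GFP-positive library of D4, with 11.5% of all genes lower and 25.4% higher. At D8, 11 were lower and 1 higher, with 12.2% and 20.3% of all genes. Ifitm2, the neighbour in function of Ifitm3, was at 212 against 1024 CPM at D4, Lgals9, a galectin gene, at 14.5 against 103, and Ly6e, a gene of a surface protein that restricts virus entry, at 218 against 724.

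**Figure D5:**
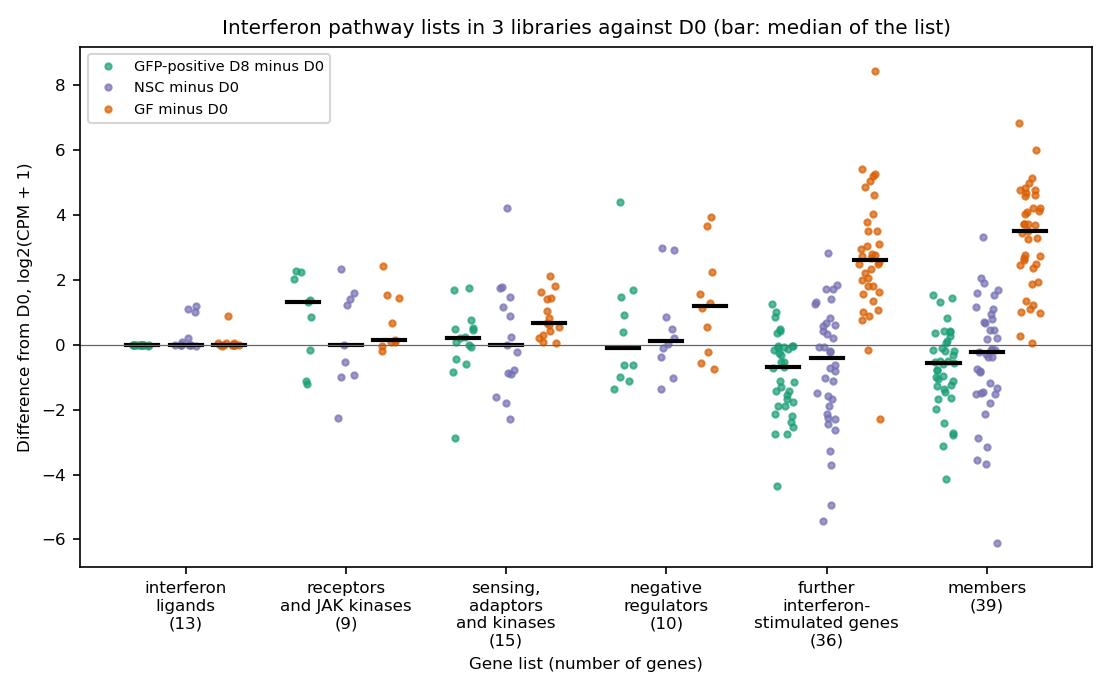
Difference from D0 in log2(CPM + 1) (vertical axis) of each gene, by list (horizontal axis, number of genes in brackets), for the GFP-positive D8, NSC and GF libraries, with a black bar at the median of each list. The members and the further interferon-stimulated genes stand high in GF, with medians of 3.51 and 2.61, while the ligands stay near 0 and the receptors and kinases have a GF median of 0.13.

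In the genome 17 of the 39 members lay in 7 clusters with gaps of at most 200000 bases, by the GRCm38.p6 annotation. Neighbours were not always alike. The IFIT cluster (chr19:34550550-34650009) held Ifit2 beside Ifit1 and Ifit3, which were ordered differently across the VCR libraries. Rsad2 and Cmpk2 (chr12:26442743-26479837) were both under 5 CPM outside GF and NSC. In the OAS cluster (chr5:120730333-120907544) Oas2 and Oas3 were under 5 CPM in all libraries but GF, while Oas1a was at 7.09 CPM at D0 and 9.07 at D1. On chromosome 16, Parp14, Dtx3l and Parp9 (chr16:35831892-35972621) were all higher in the GFP-positive than in the GFP-negative library of D4, Parp9 with the limit on scaling given above.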

How the data were processed

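The series holds 13 samples, of which 9 RNA-seq libraries were used and 4 ATAC-seq samples were not analysed here. The deposited table holds estimated counts per gene symbol, and per the submitters' processing notes kallisto 0.43.1 and build GRCm38 were among the tools and builds used. The sources used here do not give the annotation or the way transcripts were summed, and per the labels' protocols the library kit is not stated to keep strand. Groups were taken from the sample titles, 1 library per group.

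CPM were computed as estimated count over column total (20104940 to 36751356). Calls and ratios follow the rules given above. Ratio intervals are exact conditional binomial and single-level intervals exact Poisson, both on counts rounded to whole numbers. No test was possible. The call rule was run on simulated counts that held counting error only, with planted changes larger than the threshold. That run says nothing about calls near the threshold or about spread between libraries. The members and all gene lists were chosen with earlier results of these data known. Values in all 9 libraries are given for members with 20 CPM or more in 1 library and a range of 2 or more on the log2 scale, which were 38 of the 39, and the genes outside the list were named at 5 CPM or more with the same range, or as interferon genes. Marker genes were named from the marker lists. A gene of the pathway lists is not reported here. Other settings were pseudocounts of 0.1 and 5, no floor, median ratio scaling, and TMM scaling with edgeR 4.0.16 (R 4.3.3). Other steps ran in Python 3.11.15 with pandas 2.3.3 and scipy 1.17.1. Positions, promoters and gene types came from RefSeq tables of GRCm38.p6.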

Additional observations from a re-analysis of the deposited data

How the results depend on the processing

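The GF result was steady: 35 members were higher than at D0 with every pseudocount, without a floor and with median ratio scaling, and 33 with TMM scaling, where Ifi35 (0.86) and Xaf1 (0.99) missed the threshold. A pseudocount of 5, which shrinks differences of low genes, left 3 members lower at D1, 6 at D2 and 7 in the GFP-negative library of D8. It left 2 higher in the GFP-positive library of D4 against D0, 2 higher in NSC, 5 higher in the GFP-positive against the GFP-negative library at D4, and 1 higher and 1 lower at D8. It also left 0 higher from D1 to D2, 1 lower between the days in each fraction, and 2 lower in the GFP-positive library of D8 against NSC. Median ratio scaling gave 12 lower at D4 in the GFP-negative library, 2 higher and 14 lower in the GFP-positive one against D0, 5 higher at D4 and 3 at D8 between the fractions, and 3 higher in NSC. TMM scaling gave 11 lower at D4 in the GFP-negative library, 2 higher and 13 lower at D4 and 1 higher at D8 in the GFP-positive ones, 5 higher and 4 lower between the fractions at D4, 2 higher in NSC against D0, and 2 lower in the GFP-positive library of D8 against NSC. Without a floor 1 member was higher at D8 than at D4 in the GFP-negative fraction, and 13 were lower in the GFP-positive library of D8 against NSC. The median difference of the members between the fractions at D4 turned from 0.27 to -0.0027 with TMM scaling. The scalings moved the median of all genes against D0 by -0.57 (median ratio) and -0.55 (TMM) in the GFP-positive library of D4, by -0.31 and -0.27 in the GFP-negative one, by -0.46 and -0.51 in the GFP-positive library of D8, by -0.27 and -0.35 in the GFP-negative one, by -0.51 and -0.999 in NSC and by -0.09 and -0.24 in GF. A pseudocount of 0.1 kept every count within 1.5 times. The settings for D2 against D1, for D8 against D4 within a fraction, and for the comparisons of GF and the GFP-positive library of D8 with each other and with NSC were chosen after seeing the data.

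No paired analysis was possible because each group is 1 library and no result comes from a test. Leaving out a library of a group was not possible either. Depth limits the low members: 3 counts correspond to 0.0816 CPM at D0 and 0.149 in NSC, and several members outside GF stood close to that.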
